A study of Mus musculus with 13 samples.

Results

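Nr4a1, Nr4a2, Nr4a3, Egr1, Egr2, Egr3, Cd69, Tnfrsf9 and Itm2a are genes that T cells and thymocytes are known to raise after a signal through the T cell receptor (TCR). They are given by their symbols, each of which stood once in the gene lists of both libraries, so that 9 of 57010 genes are described. The data are split-pool single-cell RNA counts, in which fixed cells receive well barcodes in successive rounds and each transcript is counted once by its unique molecular identifier (UMI). Thymi came from 2-month-old female C57BL/6N mice with no stated treatment, and both lobes of 2 mice were run with the Parse WT kit and both lobes of 2 further mice with the Parse Mini kit. Each lobe was mashed and went through a warm digestion with collagenase/dispase and DNase I before its cells were fixed. The 4 lobes of a kit are technical replicates of 2 animals, and the sources used here do not tie each WT lobe to its mouse. The p-values below thus do not measure the spread between animals. In the main fit they rest on the variation left after lobe and class, pooled over all classes of a kit and partly shared across genes. The WT library also held 16 other samples, which the labels assign jointly to thymus and spleen and to control and chronic stress conditions without saying which is which and which the text of the study calls non-thymic, so these enter no test.

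Developing T cells are tested for the fit of their receptor to self-peptides while they are double-positive (DP) for CD4 and CD8. A DP cell first proliferates (DP-P), then rearranges its receptor genes with the Rag recombinase (DP-R), and on a suitable signal enters selection (DP-S) on its way to the single-positive (SP) CD4 or CD8 stage, while strong signals lead to deletion or to agonist-selected fates such as regulatory T cells (Treg). The receptor signal reaches the nucleus within minutes to hours, where Egr zinc-finger factors and Nr4a orphan nuclear receptors are among the first genes switched on. Cd69, Tnfrsf9 and Itm2a encode surface or membrane proteins that follow.

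The promoters of the Nr4a genes are shown because all 3 genes were higher in selected and in agonist-signalled thymocytes. They were searched for TGACG, the core of the element that CREB and ATF factors bind. Of the RefSeq promoter windows of 250 bases before a start site on GRCm38.p6, 17.8% of 32851 held TGACG or its reverse complement CGTCA at least once and 0.137% held 4 or more, counted on both strands and also where the motifs overlap. The windows of Nr4a1, Nr4a2 and Nr4a3 each held 4. Capitals mark the motif. The Nr4a1 window is chr15:101266596-101266845 on the plus strand, the Nr4a2 window is chr2:57124004-57124253 on the minus strand, and of the Nr4a3 window the 98 bases outside annotated exons, chr4:48045055-48045152 on the plus strand, are given with 3 of its 4 motifs.
Nr4a1: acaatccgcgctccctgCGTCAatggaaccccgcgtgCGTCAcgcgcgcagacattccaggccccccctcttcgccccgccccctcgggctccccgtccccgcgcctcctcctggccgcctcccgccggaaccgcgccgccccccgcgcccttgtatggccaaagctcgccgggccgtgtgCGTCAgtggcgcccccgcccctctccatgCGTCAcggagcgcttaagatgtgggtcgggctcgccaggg
Nr4a2: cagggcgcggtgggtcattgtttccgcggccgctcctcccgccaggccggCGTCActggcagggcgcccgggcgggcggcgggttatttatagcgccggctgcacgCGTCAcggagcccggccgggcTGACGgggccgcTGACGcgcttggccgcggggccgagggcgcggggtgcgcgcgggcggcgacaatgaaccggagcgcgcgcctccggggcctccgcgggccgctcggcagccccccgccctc
Nr4a3: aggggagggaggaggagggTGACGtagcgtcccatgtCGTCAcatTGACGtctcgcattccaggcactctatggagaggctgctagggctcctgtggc
The Itm2a window held 1 such motif, both Tnfrsf9 windows held 0, and the Egr2 windows held 0 or 2 depending on the start site. Egr1, Egr3 and Cd69 had no entry in this table.

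On GRCm38 with the GENCODE M21 annotation the genes lie on separate stretches of the genome, with no other annotated gene over 8 of the 9 genes. Nr4a1 spans chr15:101254269-101274795, Nr4a2 chr2:57106830-57124003 and Nr4a3 chr4:48045153-48086447. Egr2 spans chr10:67535475-67542188 and Egr3 chr14:70077203-70082614. Cd69 spans chr6:129267325-129275436 and Itm2a chrX:107397099-107403376. Tnfrsf9 at chr4:150914562-150946102 overlaps Camta1 on the other strand, and no source used here says whether the counting used strand. Levels were compared within a gene between cell classes and not between genes, whose lengths differ.

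After quality control 37626 thymic cells of the WT kit and 18402 of the Mini kit were kept, with 30450786 to 124106974 UMIs in a WT lobe and 28057164 to 33264104 in a Mini lobe. The median cell of a lobe held 2729 to 3584 UMIs (WT) and 2173 to 2921 (Mini). Cells of both kits were clustered together without the 9 genes, and clusters were given a class by marker genes that do not include them. The classes are DP-R-like (24376 cells), DP-P-like (6021), DP-S-like (2629), immature SP-CD4-like (2553), agonist-signalled-like (1683), double-negative (DN)-like (1507), mature SP-CD4-like (1229), SP-CD8-like (842) and Treg-like (423), written below without the suffix, and 13108 cells stayed unnamed. The markers of the agonist class, Ikzf2, Pdcd1, Tnfrsf18 and Nfkb1, are themselves raised by receptor signals. Its 1 cluster of 1683 cells scored higher on the DP-S markers (mean log2 difference of 1.96 from the other clusters) than on these 4 (1.64). It was given the agonist name because at least 3 of the 4 were raised in it and their mean was at least 1. All classes were cut from genes that vary together with the 9, so the tests between classes describe these lobes and are not independent of the clustering. Clusters whose SP markers came with much Rag1, or whose proliferation markers came with maturity genes, were left unnamed: they held 10.6% to 18.8% of the cells of a WT lobe and 9.12% to 15.9% of a Mini lobe. Of the DP-R cells, 683 formed a cluster from 1 lobe only. Barcodes that recur in more than 1 sublibrary made up 19.2% of 103602 in the WT library and 7.26% of 18725 in the Mini library, and cells were kept apart by sublibrary.

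Stray RNA was gauged in erythroid-like cells, which should lack the 9 genes. In the 104 erythroid-like cells of the WT lobes, at a median of 785 to 1049.5 UMIs per cell in a lobe, Nr4a1 had a UMI in 5 cells (4.81%) and Egr1 in 3 (2.88%). The other 7 genes had a UMI in 0 of 104 cells, which allows a share of up to 2.88% (counting error only). Summed over the lobes these were 79.9 CPM for Nr4a1 (exact 95% Poisson interval 25.9 to 186) and 47.9 CPM for Egr1 (9.88 to 140.1), and in the 42 erythroid-like cells of Mini 44.3 CPM for Nr4a1 (1 UMI, 1.12 to 247) and 133 CPM for Egr1 (3 UMIs, 27.4 to 388), where CPM is the UMIs of a gene per 1000000 UMIs outside ribosomal RNA. Rag1, the recombinase gene of the abundant DP-R cells, had a UMI in 22 of the same cells (21.2%), so RNA of other cells or doublets reached these barcodes. Of artificial doublets made from the thymic lobes, 14.35% to 21.96% in WT and 14.5% to 15.95% in Mini scored at or above the limit for calling one, so many doublets may remain among the cells kept.

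**Figure D1:**
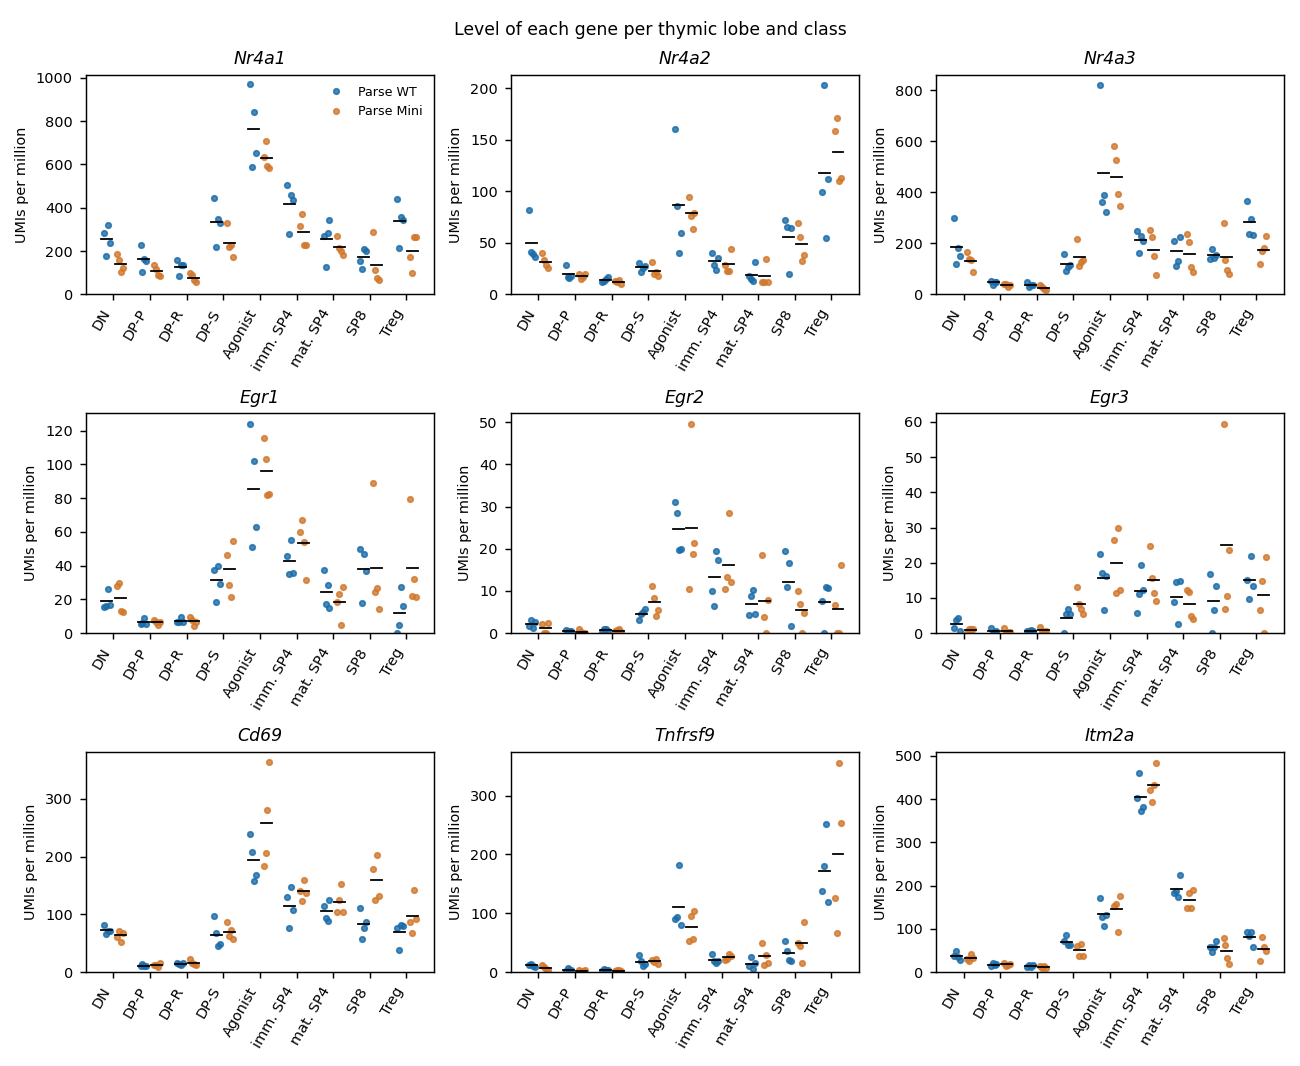
Level of each of the 9 genes in 9 thymocyte classes, in CPM, the UMIs of the gene per 1000000 UMIs outside ribosomal RNA (linear axis from 0), 1 panel for each gene. Points are lobes, blue for the WT kit and orange for the Mini kit, and black lines are the mean over the 4 lobes of a kit: DP-R and DP-P cells sit lowest in most panels, the agonist-signalled class is highest for Nr4a1, Nr4a3, Egr1, Egr2 and Cd69, immature SP-CD4 cells for Itm2a and Treg cells for Tnfrsf9.

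The step from DP-R to DP-S cells, the start of selection, went with a higher level of all 9 genes in the WT lobes and of all 7 genes that could be tested in the Mini lobes. Levels are given as CPM, the UMIs of a gene per 1000000 UMIs outside ribosomal RNA, summed over the cells of a class in a lobe. Nr4a1, which encodes the nuclear receptor Nur77 and is the usual reporter of receptor signals in thymocytes, stood at 157, 83.0, 135 and 137 CPM in the DP-R cells of WT lobes 1 to 4 and at 445, 218, 346 and 328 CPM in their DP-S cells. No DP-S lobe overlapped with a DP-R lobe. In the Mini lobes T-1-A, T-1-B, T-2-A and T-2-B Nr4a1 stood at 97.1, 90.6, 64.3 and 56.6 CPM in DP-R cells against 329, 219.6, 225 and 174 CPM in DP-S cells, again without overlap. The intervals of the pooled erythroid-like level, 25.9 to 186 CPM in WT and 1.12 to 247 in Mini, hold all these DP-R values. The Mini interval also holds the DP-S values of T-1-B, T-2-A and T-2-B. The part of stray RNA in these levels was not tested. The difference between DP-S and DP-R cells was 1.33 ± 0.08 on the log2 scale in WT (SE of the fit, n = 4 lobes, edgeR adjusted p = 6.2e-20). It was 1.58 ± 0.12 in Mini (n = 4, edgeR adjusted p = 3.6e-18).

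Its relatives Nr4a3 (NOR1) and Nr4a2 (NURR1), nuclear receptors of the same family, differed in size. Nr4a3 went from 36.4 ± 8.49 CPM in DP-R cells to 119 ± 28.6 in DP-S cells in WT (SD, n = 4) and from 24.7 ± 8.98 to 147 ± 48.0 in Mini, log2 differences of 1.67 ± 0.13 and 2.55 ± 0.16. Nr4a2 had the smallest difference of the tested genes in both kits, from 14.1 ± 2.33 to 26.3 ± 3.41 CPM in WT and from 12.1 ± 1.92 to 22.8 ± 6.08 in Mini, or 0.83 ± 0.22 (edgeR adjusted p = 0.0039) and 0.84 ± 0.23 (edgeR adjusted p = 0.0052). The WT value was 0.84 ± 0.28 without the lobe as a block and then missed the threshold (edgeR adjusted p = 0.055), which left 8 of the 9 genes. The Mini value missed it at 0.73 without T-1-A (edgeR adjusted p = 0.064), 0.51 with called doublets kept (0.060) and 0.71 with 15 components (0.081). The Nr4a3 difference was larger in the Mini kit by 0.88, with an unadjusted p of 9.4e-05 from the edgeR test of the difference between the kits, but this did not hold over the 9583 genes tested (edgeR adjusted p = 0.30).

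The Egr genes, which encode zinc-finger factors of the immediate response, were scarce in DP-R cells and several-fold higher in DP-S cells. Egr1 was at 6.58, 6.48, 9.29 and 6.68 CPM in the DP-R cells of the WT lobes and at 37.6, 18.3, 39.7 and 29.4 CPM in the DP-S cells, a log2 difference of 2.04 ± 0.18 (n = 4, edgeR adjusted p = 3e-14). In Mini it was 2.43 ± 0.24 (n = 4, edgeR adjusted p = 5e-13). The DP-S means, 31.2 ± 9.71 CPM in WT and 37.8 ± 15.3 in Mini, stood beside 7.26 ± 1.36 and 6.97 ± 2.13 CPM in the DP-R cells of the same lobes (SD, n = 4). The pooled erythroid-like levels of 47.9 and 133 CPM rest on 3 UMIs in each kit, and they exceed the means of DP-R and DP-S cells and in Mini also that of agonist-signalled cells (95.9 ± 16.6). Egr2 and Egr3, whose products act together in selection and in the restraint of T cell activation, rose by 2.72 ± 0.47 and 2.71 ± 0.52 in WT from below 1 CPM (0.706 ± 0.346 and 0.689 ± 0.203). Egr3 had no UMI in the DP-S cells of WT lobe 1 and 5.33 to 6.75 CPM in those of the other 3 lobes, so its groups overlapped. Egr2 at 3.00 to 5.79 CPM did not overlap with the 0.376 to 1.04 CPM of DP-R cells. At these levels a lobe held few UMIs of either gene, with 160 DP-S cells in WT lobe 1, so this separation rests on few counts. Both fell below the expression filter in Mini, where their DP-S means of 7.27 ± 3.13 and 8.41 ± 3.27 CPM stood beside DP-R means of 0.603 ± 0.215 and 0.821 ± 0.593 (SD, n = 4).

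Cd69, a C-type lectin that keeps activated lymphocytes in tissue and marks positive selection, was at 12.9 to 16.2 CPM in the DP-R cells of the WT lobes and at 97.7, 67.7, 44.7 and 48.4 CPM in their DP-S cells. The difference was 2.03 ± 0.15 in WT (n = 4, edgeR adjusted p = 4.7e-17) and 2.11 ± 0.18 in Mini (n = 4, edgeR adjusted p = 9.8e-16). Tnfrsf9, the costimulatory receptor 4-1BB, differed by 2.09 ± 0.29 and 2.80 ± 0.40, and Itm2a, a small membrane protein of maturing thymocytes, by 2.29 ± 0.13 and 2.09 ± 0.21. Of all genes tested 8.03% were higher in DP-S cells in WT and 7.81% in Mini, against the 9 of 9 and 7 of 7 here. The median log2 difference of the 9 was 2.04 in WT and of the 7 was 2.11 in Mini, against -0.02 and -0.03 over all genes. The expression filter was set over all classes at once. Egr2 and Egr3, scarce in both classes here, could thus enter the WT test through classes where they are higher. The same limit holds for them in each WT comparison below. The 7 genes tested in both kits passed in both. First-round wells, the separate wells in which the cells of each lobe were first barcoded, gave the same order for Nr4a1, Nr4a3, Egr1, Cd69, Tnfrsf9 and Itm2a in 8 of 8 WT wells and 12 of 12 Mini wells, and for Nr4a2 in 6 and 10, Egr2 in 7 and 10 and Egr3 in 6 and 11 of them.

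**Figure D2:**
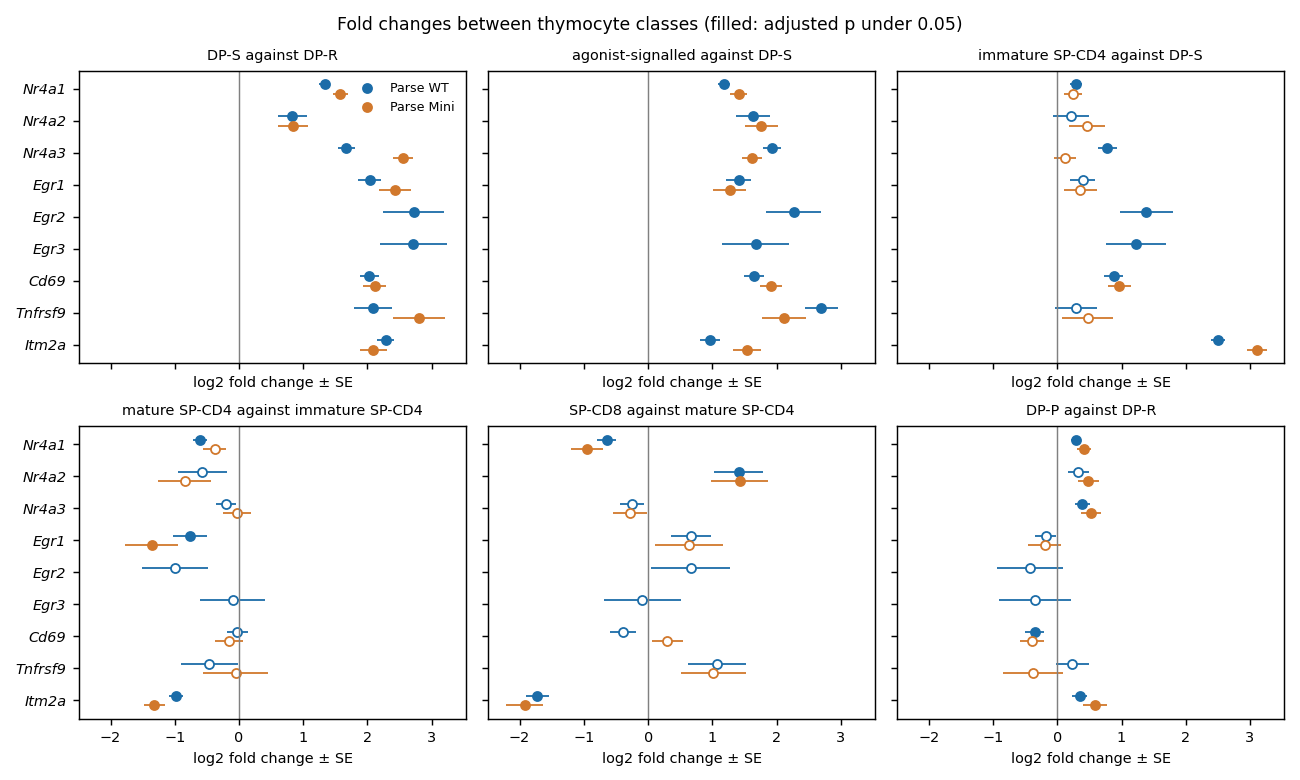
Log2 fold change of each of the 9 genes from the edgeR fit in 6 comparisons of classes, WT and Mini kits side by side (blue for WT, orange for Mini). Bars are 1 SE of the fit, which pools the variation of all classes of a kit and is not the SE of the 4 lobe values. Filled points passed an adjusted p of 0.05: they cover all tested genes in DP-S against DP-R and agonist-signalled against DP-S, 6 of 9 in WT and 2 of 7 in Mini in immature SP-CD4 against DP-S, and 2 to 4 in each of the other comparisons.

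Relative to DP-S cells, all 9 genes were higher in the agonist-signalled class of the WT lobes and all 7 tested genes in the Mini lobes, where 10.1% and 8.55% of all genes tested were higher. The median log2 differences were 1.65 and 1.61, against 0.04 and -0.01 over all genes. Nr4a1 stood at 969.9, 590.0, 842 and 654 CPM in the agonist-signalled cells of the WT lobes and at 633, 706, 593 and 583 CPM in those of the Mini lobes, above every DP-S lobe of the same kit. The difference from DP-S cells was 1.18 ± 0.09 in WT (n = 4, edgeR adjusted p = 1.3e-15) and 1.41 ± 0.13 in Mini (n = 4, edgeR adjusted p = 1.6e-14). Nr4a3 reached 473 ± 233 CPM in WT and 461 ± 111 in Mini (SD, n = 4). Its WT values were 820.5, 362, 389.5 and 321 CPM, with lobe 1 far above the other lobes. Without lobe 1 the Nr4a3 difference was 1.72 ± 0.13 and Egr3 no longer passed, at 1.29 ± 0.57 (edgeR adjusted p = 0.12). Egr3 also missed the threshold without lobe 2 and without lobe 4.

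Tnfrsf9 showed the largest difference between agonist-signalled and DP-S cells, 2.70 ± 0.26 in WT (n = 4, edgeR adjusted p = 8.1e-13) and 2.11 ± 0.35 in Mini (n = 4, edgeR adjusted p = 1.4e-06). It went from 28.5, 19.0, 10.97 and 12.8 CPM in the DP-S cells of the WT lobes to 90.2, 94.1, 182 and 79.5 CPM. Nr4a2, modest at the DP-S step, differed here by 1.63 ± 0.27 and 1.76 ± 0.26. Egr1 differed by 1.41 ± 0.20 and 1.27 ± 0.25, Cd69 by 1.65 ± 0.16 and 1.91 ± 0.17, and Egr2 and Egr3 in WT by 2.26 ± 0.42 and 1.67 ± 0.52 (edgeR adjusted p = 2.9e-05 and 0.015). Itm2a differed least in WT, 0.96 ± 0.15, and by 1.54 ± 0.21 in Mini.

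From DP-S to immature SP-CD4 cells the 9 genes parted. Itm2a went from 72.1, 84.4, 61.6 and 61.6 CPM in the DP-S cells of the WT lobes to 403, 460.1, 373 and 383 CPM in immature SP-CD4 cells, its highest level in any thymocyte class, a log2 difference of 2.51 ± 0.11 (n = 4, edgeR adjusted p = 7.1e-28). The Mini lobes gave 3.11 ± 0.15 (n = 4, edgeR adjusted p = 2.2e-28), with immature SP-CD4 levels of 419.8, 393, 431 and 484 CPM. Cd69 was higher by 0.88 ± 0.15 and 0.96 ± 0.18. In WT Nr4a1 (0.29 ± 0.09), Nr4a3 (0.78 ± 0.14), Egr2 (1.38 ± 0.41) and Egr3 (1.22 ± 0.47) passed as well, for 6 of 9 against 16.8% of all genes, while in Mini only Cd69 and Itm2a did, for 2 of 7 against 13.6%. Nr4a2, Egr1 and Tnfrsf9 passed in neither kit. The median was 0.78 in WT and 0.46 in Mini, against 0.04 and 0.02 over all genes, and the WT count went down to 3 without lobe 3 or lobe 4, where Nr4a1, Egr2 and Egr3 missed the threshold. Nr4a1 and Egr3 also missed it without the lobe as a block (edgeR adjusted p = 0.42 and 0.066). The Mini count was 6 with called doublets kept, where the classes were redrawn. DP-S cells of lobe T-1-A then went from 214 to 463.

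Maturation of SP-CD4 cells went with lower levels of Itm2a and Egr1. Itm2a fell by 0.98 ± 0.11 (SE) in WT, from 405 ± 38.9 to 191 ± 22.3 CPM (SD, n = 4), and by 1.32 ± 0.16 in Mini, from 432 ± 38.4 to 167 ± 22.6 CPM. Egr1 fell by 0.76 ± 0.27 and 1.36 ± 0.41 (edgeR adjusted p = 0.034 and 0.013), and Nr4a1 by 0.61 ± 0.11 in WT alone (edgeR adjusted p = 1.8e-05), its Mini difference being -0.38 ± 0.18 (edgeR adjusted p = 0.15). These are 3 of 9 genes in WT against 7.53% of all genes lower, and 2 of 7 in Mini against 6.23%. The medians were -0.58 and -0.38, against -0.02 over all genes in both kits. Cd69, at 115 ± 30.9 CPM in immature and 105 ± 17.5 in mature cells of WT and at 140.4 ± 15.3 and 121 ± 22.3 in Mini, passed in neither kit, with log2 differences of -0.03 ± 0.17 and -0.16 ± 0.21. Egr1 missed the threshold without lobe 2, 3 or 4 in WT (edgeR adjusted p from 0.077 to 0.21) and without T-1-A, T-1-B or T-2-A in Mini (0.05 to 0.14), while Nr4a2 came to pass in Mini without T-2-A, at -1.47 (edgeR adjusted p = 0.046). The fit without the lobe as a block left 1 of the 3 WT genes.

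SP-CD8 cells differed from mature SP-CD4 cells in both directions. Nr4a2 was higher, at 72.3, 65.2, 20.0 and 64.0 CPM in the SP-CD8 cells of the WT lobes against 17.5, 14.6, 12.9 and 31.3 CPM in mature SP-CD4 cells. Lobe 3, at 20.0, stood apart from the other SP-CD8 values and lay within the SP-CD4 range. The log2 difference was 1.41 ± 0.38 in WT and 1.42 ± 0.44 in Mini (n = 4 each, edgeR adjusted p = 0.0055 and 0.025), 1 of 9 and 1 of 7 genes against 7.96% and 4.52% of all genes. The Mini call was lost without T-1-A, T-1-B or T-2-B, at log2 differences of 1.103 to 1.34. Nr4a1 (-0.64 ± 0.14 and -0.95 ± 0.25) and Itm2a (-1.73 ± 0.18 and -1.92 ± 0.29) were lower, 2 of 9 and 2 of 7 against 7.95% and 4.23%, and Nr4a1 missed the threshold in Mini without T-2-A or T-2-B and in both kits without the lobe as a block (edgeR adjusted p = 0.15 and 0.066). Itm2a stood at 58.2 ± 9.72 CPM in the SP-CD8 cells of the WT lobes and 48.1 ± 27.6 in Mini. Nr4a3, Egr1, Cd69 and Tnfrsf9 passed in neither kit, nor did Egr2 and Egr3 in WT. The medians of the genes tested were -0.09 and 0.30, against -0.02 and 0.00 over all genes.

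Most of all genes tested differed between proliferating DP and DP-R cells, as did 4 of the 9 in WT and 4 of the 7 in Mini. These counts changed when cells above the UMI limit were kept and the classes redrawn. Nr4a1 (0.30 ± 0.08), Nr4a3 (0.39 ± 0.12) and Itm2a (0.35 ± 0.12) were higher in WT, 3 of 9 against 28.7% of all genes, and Cd69 was lower by 0.35 ± 0.15 (edgeR adjusted p = 0.031), 1 of 9 against 35.5%. In Mini Nr4a1 (0.42 ± 0.11), Nr4a2 (0.48 ± 0.16), Nr4a3 (0.53 ± 0.15) and Itm2a (0.59 ± 0.18) were higher, 4 of 7 against 27.9%, and 0 of 7 were lower against 34.4%, with Cd69 at -0.40 ± 0.19 (edgeR adjusted p = 0.055) and as the one gene lower at an unadjusted p under 0.05 (edgeR), while DESeq2 called 0 lower. The medians were 0.24 and 0.42, against -0.06 and -0.07 over all genes. edgeR without the lobe as a block called 0 of 9 in WT, and without the upper limit on UMIs per cell 9 of 9 genes in WT and 8 of 8 in Mini were called, all higher. Without that limit the cells were clustered anew and the classes changed. In WT lobe 2 the DP-P cells went from 1215 to 2717 and the DP-R cells from 4555 to 3336. In Mini lobe T-1-A they went from 590 to 1111 and from 2165 to 1598. The parts of the added cells and of the changed classes were not tested. Cd69 in WT was then 0.67 higher, Egr2 1.67 and Egr3 1.73, and in Mini Egr1 was 0.91, Cd69 0.85 and Tnfrsf9 1.80 higher, each against a lower value within the limit. Cd69 in WT also missed the threshold without lobe 1, 3 or 4, and without lobe 3 only 2 of the 9 genes passed.

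DN and Treg cells were described without a test. The DN class joined unlike clusters, and its means below do not tell them apart. DN cells, the earliest stage, held 254 ± 62.0 CPM of Nr4a1 and 187 ± 78.8 of Nr4a3 in WT (SD, n = 4), and 142 ± 37.9 and 131 ± 33.7 in Mini, above the DP-R means of the same kit. Cd69 was at 72.5 ± 6.95 CPM in the DN cells of WT and 63.3 ± 8.21 in Mini, against 14.3 ± 1.49 and 15.9 ± 4.62 in DP-R cells. Egr2 and Egr3 were at 2.17 ± 0.896 and 2.58 ± 1.74 CPM in the DN cells of WT, against 0.706 ± 0.346 and 0.689 ± 0.203 in DP-R cells, and at 1.14 ± 1.31 and 0.904 ± 0.605 in Mini, against 0.603 ± 0.215 and 0.821 ± 0.593. Treg cells had the highest level of Tnfrsf9 among the thymocyte classes, at 137, 179, 252 and 119.8 CPM in the WT lobes and 125, 66.9, 356 and 254 CPM in Mini, a range that overlapped with the agonist-signalled class. They also had the highest mean of Nr4a2, 117 ± 62.5 CPM in WT and 138 ± 31.1 in Mini. Egr1 was at 0, 4.85, 27.4 and 15.97 CPM in Treg cells of WT, below the agonist-signalled lobes, which held 51.3 CPM or more. In Mini Treg cells held 79.2, 22.3, 32.3 and 21.6 CPM of Egr1, also below the agonist-signalled lobes at 82.1 to 116 CPM and on average (38.9 ± 27.4) at the level of DP-S cells. The 30 to 104 Treg cells of a WT lobe also held 240.2 ± 102 CPM of Rag1, against 69.0 ± 37.9 in agonist-signalled cells, and the part of DP RNA or doublets in their values was not tested.

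Ordered by the WT mean, Nr4a1 ran from DP-R (128 ± 31.8 CPM) through DP-P (162 ± 52.6), SP-CD8 (170.2 ± 43.1), mature SP-CD4 (254 ± 91.4), DN (254 ± 62.0), DP-S (334 ± 93.1), Treg (339 ± 94.2) and immature SP-CD4 (418 ± 98.6) to agonist-signalled cells (764 ± 174). Only at the last step was the gap between neighbouring means larger than both SDs. The DP-R, DP-P and SP-CD8 means lie within the interval of the pooled erythroid-like level of Nr4a1 in WT (25.9 to 186 CPM). Nr4a3 had the same ends, DP-R at 36.4 ± 8.49 and agonist-signalled at 473 ± 233 CPM, with Treg second at 283 ± 62.4, within the SD of the first. For Cd69 the ends were DP-P (11.03 ± 1.52 CPM) and agonist-signalled cells (194 ± 37.5), with immature SP-CD4 (115 ± 30.9), mature SP-CD4 (105 ± 17.5) and SP-CD8 cells (83.0 ± 22.2) between and each within the SD of the next. For Itm2a the top 2 classes, immature SP-CD4 (405 ± 38.9) and mature SP-CD4 (191 ± 22.3), stood clear of each other and of agonist-signalled cells (134 ± 27.6).

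Shares of cells with a UMI depend on depth. Nr4a1 had a UMI in 44.8% ± 11.7 of agonist-signalled cells in WT (SD, n = 4), 45.0% ± 11.04 of DP-S cells and 17.7% ± 5.62 of DP-R cells, at class medians of 1266 to 2585, 3188 to 4397 and 1608 to 2707 UMIs per cell. Thinning each cell to 1000 UMIs outside ribosomal RNA left 660 of 1055 agonist-signalled, 1662 of 1674 DP-S and 11279 of 15479 DP-R cells. It gave 42.5% ± 6.18, 22.7% ± 4.60 and 10.2% ± 2.04 for Nr4a1. The 4.81% of erythroid-like cells was not thinned. Their median of 785 to 1049.5 UMIs includes ribosomal RNA, so this share is not a background at equal depth. The equal share of agonist-signalled and DP-S cells at their own depth thus parted at equal depth, in the order of the CPM. In Mini the thinned shares of Nr4a1 were 35.9% ± 5.40, 16.8% ± 3.30 and 6.30% ± 1.57.

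Nr4a3 and Cd69 had the same order at equal depth. Nr4a3 had a UMI in 20.3% ± 5.19 of thinned agonist-signalled cells, 8.06% ± 1.35 of DP-S and 3.08% ± 0.802 of DP-R cells in WT, and Cd69 in 16.1% ± 4.31, 4.80% ± 1.503 and 1.35% ± 0.129. The 0 of 104 erythroid-like cells with a Cd69 UMI, too few to place a share of 1.35%, set no background for the DP-R share. Itm2a had a UMI in 29.2% ± 2.35 of thinned immature SP-CD4 cells in WT and 29.4% ± 3.92 in Mini, against 10.6% ± 3.20 and 11.1% ± 3.84 of agonist-signalled cells. Tnfrsf9 had a UMI in 11.3% ± 6.46 of thinned Treg cells and 6.13% ± 2.53 of agonist-signalled cells in WT, and in 27.4% of Treg cells at their own depth. Egr1 had a UMI in 8.17% ± 1.79 of thinned agonist-signalled, 3.19% ± 1.88 of DP-S and 0.617% ± 0.21 of DP-R cells in WT, and in 6.89% ± 1.09, 4.02% ± 2.00 and 0.572% ± 0.252 in Mini. At their own depth 2.88% of the erythroid-like cells of WT (3 cells) and 4.76% of those of Mini had an Egr1 UMI, above the DP-R shares and close to the DP-S shares. Egr2 and Egr3 had a UMI in at most 1.90% ± 1.42 and 1.82% ± 0.122 of the thinned cells of a WT class, both in agonist-signalled cells.

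Cells also differed in how many of the 9 genes they showed at once. At 1000 UMIs per cell, 30.9% ± 5.15 of agonist-signalled cells in WT had a UMI of at least 2 of the 9 genes (SD, n = 4), against 23.6% ± 4.54 of immature SP-CD4, 9.09% ± 2.55 of DP-S and 1.37% ± 0.497 of DP-R cells. The Mini lobes gave 29.5% ± 1.87, 19.7% ± 2.22, 9.69% ± 3.03 and 0.892% ± 0.529 in the same order. At least 3 of the genes were seen in 12.5% ± 2.92, 7.98% ± 2.05, 2.41% ± 0.929 and 0.118% ± 0.119 of the WT cells. At their own depth the shares with at least 2 were 34.6% ± 11.7, 36.3% ± 13.5, 31.5% ± 6.25 and 5.17% ± 1.92, so that the agonist-signalled and DP-S classes overlapped.

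**Figure D3:**
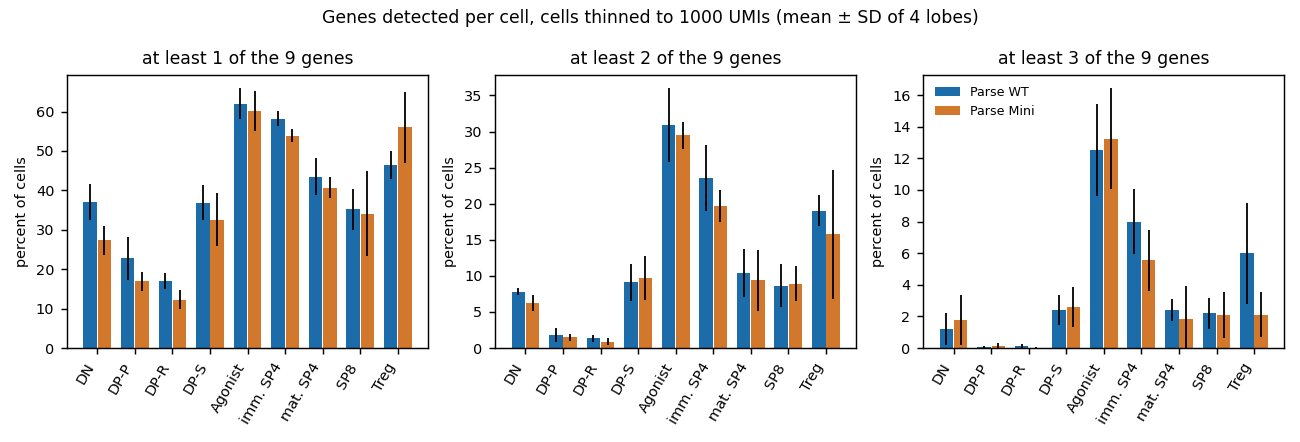
Percent of cells of each class with a UMI of at least 1, 2 or 3 of the 9 genes, each cell thinned to 1000 UMIs, for the WT and Mini kits. Bars are means over the 4 lobes and whiskers 1 SD: agonist-signalled cells have the highest WT mean in each panel, with 30.9% at 2 or more genes against 1.37% of DP-R cells.

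Within classes and at like depth, most pairs of the genes were found in the same cells more often than independent detection within the strata used would give. The odds ratio of having a UMI of both genes was taken within 10 strata of UMIs per cell, within lobe and class, over the DP-R, DP-S, agonist-signalled, immature and mature SP-CD4 and SP-CD8 classes. Pairs with fewer than 5 cells holding both genes in any lobe were left out, which kept 28 of the 36 pairs among the 9 genes in WT and 24 of 36 in Mini. Their median odds ratio was 1.84 in WT, from 1.13 to 5.41, and 24 of the 28 were above 1 in every lobe. In Mini the median was 2.08, from 1.07 to 5.45, with 18 of 24 above 1 in every lobe. This limit rests on the cells holding both genes and so favours high ratios. With pairs kept by the number of such cells expected within the strata, an alternative chosen after seeing the data, the median was 1.695 over 22 pairs in WT and 1.72 over 19 in Mini, and 18 and 15 of them were above 1 in every lobe. With all 36 pairs and the lobes joined the medians were 1.74 and 1.85, and the lowest pairs, those of Tnfrsf9 with an Egr gene, lay at 0.393 in WT and 0.519 in Mini. With called doublets kept the medians were 1.73 and 1.95, and the part of doublets that were not called was not tested.

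Reference genes not known for signal induction, among them Ptprc, Tbp and Hprt, gave a lower yardstick. The pairs of one of the 9 genes with a reference gene had medians of 1.099 over 74 pairs in WT and 1.12 over 64 in Mini, and 16 and 15 of them were above 1 in every lobe. Pairs of 2 reference genes had medians of 1.04 and 1.05 over 43 of 45 pairs each. Kept by the expected number, pairs with a reference gene had medians of 1.099 over 78 in WT and 1.11 over 71 in Mini, and all 45 reference pairs 1.04 and 1.05. Within the agonist-signalled class of WT alone, reference pairs reached a median of 1.59 over 11 pairs against 2.69 over 11 pairs of the 9 genes, so a ratio above 1 in that class was shared by genes outside the set. In Mini the same class gave 0.939 over 3 reference pairs and 2.78 over 9 pairs of the 9 genes. Pairs share cells, lobes and genes, so the medians are descriptions.

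Of the pairs kept, Egr1 with Egr2 was the strongest in WT, with a mean odds ratio of 5.41 over the lobes, from 3.89 to 6.67, and 40 cells holding both. Nr4a1 with Egr3, the strongest of those kept by the expected number, followed at 4.11 ± 0.865 (SD, n = 4; 87 cells). In Mini Egr1 with Egr3 led at 5.45 ± 1.98, from 26 cells, ahead of Nr4a3 with Tnfrsf9 at 4.75 ± 0.676, which was 2.31 ± 0.432 in WT. The best-covered pair, Nr4a1 with Nr4a3, gave 2.18 ± 0.471 in WT from 967 cells and 2.31 ± 0.127 in Mini from 384 cells. Itm2a and Nr4a2 were found together least in WT, at 1.13 ± 0.2503, from 0.86 to 1.38 over the lobes. Itm2a was a partner in 5 of the 7 lowest WT pairs. In Mini Nr4a2 with Cd69 was lowest at 1.07 ± 0.2501, a pair at 1.79 ± 0.306 in WT.

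**Figure D4:**
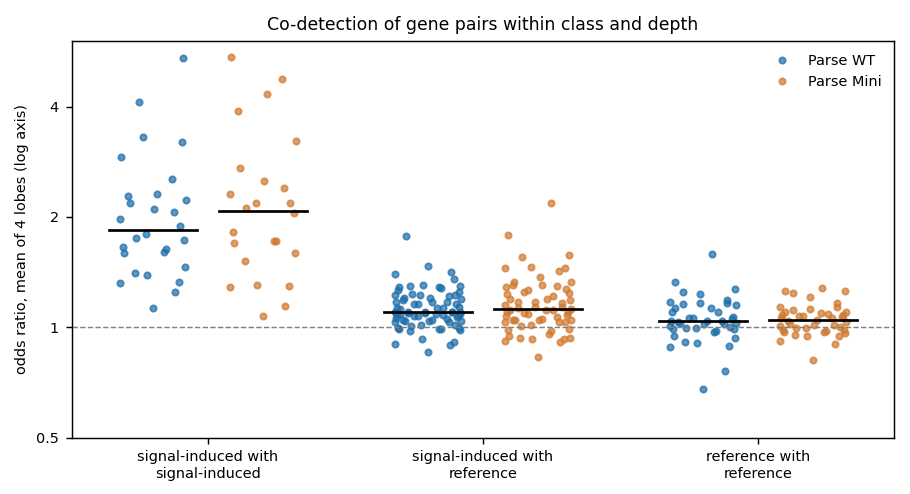
Mean odds ratio of co-detection for pairs among the 9 genes, pairs of one of them with a reference gene and pairs of 2 reference genes, for the WT and Mini kits (log axis, 1 point a pair, mean over 4 lobes, line at the median). Medians are 1.84, 1.099 and 1.04 in WT and 2.08, 1.12 and 1.05 in Mini.

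Other genes of the receptor response were counted in the same comparisons. Of 32 further TCR-induced genes, 26 were tested in WT and 22 in Mini. From DP-R to DP-S 11 of 26 and 7 of 22 were higher and 0 were lower by edgeR, also at an unadjusted p under 0.05, beside 8.03% and 7.81% of all genes higher and 8.05% and 8.47% lower. The median log2 differences of the list were 0.50 and 0.46, against -0.02 and -0.03 over all genes. Nab2, which encodes a corepressor of Egr factors, was higher by 3.54 ± 0.19 in WT and 3.81 ± 0.29 in Mini. Gadd45b (2.51 ± 0.43), Cd200 (1.64 ± 0.31) and Spry2, an inhibitor of Ras signalling (1.35 ± 0.47), were higher in WT, and Cd200 (3.31 ± 0.58), the receptor regulator Cd6 (1.30 ± 0.06) and the phosphatase gene Dusp2 (1.14 ± 0.28) in Mini.

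In agonist-signalled cells 14 of 26 genes in WT and 13 of 22 in Mini were higher than in DP-S cells, and by edgeR 0 were lower in either kit, or 0 and 1 at an unadjusted p under 0.05, beside 10.1% and 8.55% of all genes higher and 9.19% and 10.6% lower. The list medians were 0.97 and 1.248. Bhlhe40 (3.79 ± 0.94), Gadd45b (2.08 ± 0.40), Myc (2.08 ± 0.43) and Cd200 (1.99 ± 0.33) had the largest differences in WT, and Irf4 (2.56 ± 0.67), Myc (2.01 ± 0.51), Cd200 (1.77 ± 0.51) and Nab2 (1.62 ± 0.25) in Mini. From DP-S to immature SP-CD4 9 were higher and 7 lower in WT, and 7 and 6 in Mini, beside 16.8% and 14% of all genes in WT and 13.6% and 13.7% in Mini, with list medians of 0.33 and 0.13. There the costimulatory receptor gene Tnfrsf4 was higher by 2.66 ± 0.39 and 2.81 ± 0.66. Among the lower genes were Spry2 in WT, at -2.94 ± 1.02, and Nfkbie in Mini, at -1.04 ± 0.30. Irf4, a factor whose dose follows signal strength, was higher in mature than in immature SP-CD4 cells by 2.61 ± 0.33 and 2.43 ± 0.48, while 5 genes in each kit were higher and 3 and 1 lower, beside 10.6% and 9.56% of all genes higher and 7.53% and 6.23% lower. The list medians of that step were 0.31 and 0.35. SP-CD8 cells had 2 and 1 higher and 6 and 5 lower than mature SP-CD4 cells, beside 7.96% and 4.52% of all genes higher and 7.95% and 4.23% lower, with list medians of -0.24 and 0.05. In DP-P cells 5 were higher in each kit and 10 and 8 lower than in DP-R cells, beside 28.7% and 27.9% of all genes higher and 35.5% and 34.4% lower, with list medians of -0.21 and -0.31.

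Genes that respond to tissue dissociation overlap in kind with early response genes, so a list of 17 was read beside the 9. All lobes had gone through a warm enzymatic digestion. Of 13 tested in WT and 11 in Mini, 3 and 2 were higher in DP-S than in DP-R cells and 0 lower by edgeR (2 and 1 at an unadjusted p under 0.05), with Junb at 0.59 ± 0.11 and 0.78 ± 0.15. In agonist-signalled cells 6 and 5 were higher and 1 in each kit was lower than in DP-S cells, beside 10.1% and 8.55% of all genes higher, with list medians of 0.79 and 0.60. There Fos was at 1.07 ± 0.35 and 1.24 ± 0.40, Dusp1 at 1.19 ± 0.29 and 1.098 ± 0.33, Junb at 1.08 ± 0.14 and Ier2 at 1.32 ± 0.41 in WT. Immature SP-CD4 cells had 4 higher and 1 lower in each kit, mature SP-CD4 cells 1 and 1 in WT and 0 and 0 in Mini (2 and 1 at an unadjusted edgeR p under 0.05), SP-CD8 cells 2 and 2 in WT and 0 and 1 in Mini (2 and 3 unadjusted), and DP-P cells 8 and 3 in WT and 7 and 2 in Mini. The medians of the list in WT and Mini were 0.25 and 0.18 in DP-S, 0.41 and 0.29 in immature and 0.34 and 0.03 in mature SP-CD4, -0.03 and 0.22 in SP-CD8 and 0.38 and 0.62 in DP-P cells, each in its comparison above, and the shares of all genes are those given for it. The part of dissociation in the levels of the 9 genes was not tested.

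The genes whose class levels were most like those of each of the 9 were ranked by Pearson's r of log2(CPM + 1) over 36 sums of a lobe and a class in WT, among 8529 genes. The sums share lobes and differ in depth, so the values only describe likeness. Nr4a3 and Cd69 were each other's neighbours, at r = 0.89 in WT and 0.86 in Mini. Nr4a1 was followed most closely by Tacc2 (0.86 in WT, 0.80 in Mini), Hivep3 and Med14, Nr4a2 by Mdfic (0.83 and 0.66), Nt5dc3 and Ikzf2, and Nr4a3 also by Phactr2 (0.90 and 0.77) and Spata5. Egr1 was followed by the calcium channel gene Orai1 (0.83 and 0.79), Sh3bp2 and Nab1, Egr2 by Rgs10 (0.84 and 0.72), Lef1 and Cd274, and Egr3 by Phactr2 (0.82 and 0.68), Arid5b and Dgkh. Cd69 was also close to Lcp1 and Btla, Tnfrsf9 to Ikzf2 (0.88 in both kits), Zfp52 and Nt5dc3, and Itm2a to B630019A10Rik (0.95 and 0.91), Chl1 and Maml2.

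The UMIs of the genes were spread unevenly over the classes. DP-R cells were 42.2% of the cells of a WT lobe on average but held 14.6% of the Nr4a1 UMIs, 4.29% of those of Egr2 and 5.18% of those of Itm2a. Agonist-signalled cells were 2.89% of the cells and held 10.5% ± 3.92 of the Tnfrsf9 UMIs (SD, n = 4), and immature SP-CD4 cells, 4.72% of the cells, held 16.1% ± 6.86 of the Itm2a UMIs. Unnamed cells, 23.7% of the cells, held between 36.1% (Egr1) and 54.1% (Itm2a) of the UMIs of a gene, and these stand outside the tests. Depth enters these shares as well as level, and their parts were not separated. The median cell of a WT lobe held 1608 to 2707 UMIs in DP-R and 5387 to 8696 in unnamed cells. It held 1266 to 2585 in agonist-signalled and 1551 to 3248.5 in immature SP-CD4 cells.

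UMIs of some of the genes were also counted in B-like and myeloid-like cells of the thymus, which held UMIs of Rag1 too. Rag1 averaged 436 CPM in the B-like, 289 in the dendritic-like and 314 in the macrophage-like cells of WT, or 27.6%, 18.3% and 19.8% of the DP-R level, and the part of DP RNA or doublets in the values was not tested. In the B-like cells of the WT lobes Nr4a1 was at 172 ± 62.9 CPM, Cd69 at 132 ± 33.8, Egr1 at 78.4 ± 40.1 and Egr3 at 37.8 ± 14.9 (SD, n = 4). In Mini, from 117 cells, Cd69 was at 269 ± 46.1 CPM and Nr4a1 at 259 ± 124. Thymic dendritic-like cells of WT (231 cells) held 367 ± 73.9 CPM of Nr4a3, 209 ± 107 of Nr4a2 and 88.5 ± 31.0 of Egr3, and this Egr3 mean was above those of the 9 thymocyte classes. Macrophage-like cells (122 cells in 3 lobes) held 308 ± 90.6 CPM of Nr4a3 and 138 ± 18.8 of Egr1 (SD, n = 3).

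In the 16 other samples of the WT library 79948 cells were kept, 2085 to 7987 a sample, with medians of 1516 to 7236 UMIs per cell. They were clustered apart from the thymic cells by the same kind of rule, and each value below is the lowest, median and highest sample. Unnamed cells made up 8.13% to 80.4% of a sample. A cluster of 4357 cells that scored best on T markers stayed unnamed for its B markers. B-like cells were the largest class (32076 cells). Egr3 was at 11.5, 23.1 and 56.9 CPM in them, above the CD8 T-like cells (0, 6.71 and 19.5) in 16 of 16 samples and above the CD4 T-like cells (0, 10.4 and 37.8) in 11 of the 12 samples with at least 20 such cells. Nr4a1 was at 0, 23.0 and 40.3 CPM in B-like cells and was higher than in CD8 T-like cells in 14 of 16 samples.

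Cd69 had the opposite order. It was at 4.75, 9.78 and 27.98 CPM in B-like cells and 12.6, 46.1 and 82.1 in CD4 T-like cells, which were higher in 12 of 12 samples. CD8 T-like cells held 0, 36.4 and 83.4 CPM of Cd69 and were above B-like cells in 15 of 16 samples. Tnfrsf9 was at 10.7, 40.7 and 94.7 CPM in Treg-like cells, above the CD4 T-like cells (0, 3.86 and 11.7) in 12 of 12 samples. Treg-like cells also exceeded CD4 T-like cells in Nr4a1, Nr4a3 and Egr1 in 10 of 12 samples each, in Nr4a2, Egr2 and Egr3 in 9, in Itm2a in 5 and in Cd69 in 2. The reference gene Cd3e was higher in them in 12 of 12 samples too. The samples have no group here, so these counts are descriptions with no test.

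NK-like cells (1093 cells in 12 samples) were above CD8 T-like cells in Nr4a2, Nr4a3 and Tnfrsf9 in 11 of 12 samples each, in Nr4a1 in 9, in Egr2 and Egr3 in 6, in Egr1 in 5, in Itm2a in 3 and in Cd69 in 0. Nr4a3 was at 0, 74.6 and 312 CPM in them, Tnfrsf9 at 0, 46.3 and 117 CPM and Nr4a2 at 0, 34.4 and 468.6 CPM, the last from 1 sample far above the rest. Monocyte-like cells (3513 cells) had the highest median of Nr4a1, at 65.1, 149 and 265.5 CPM, followed by macrophage-like cells at 52.5, 119.5 and 186 CPM. Nr4a3 in monocyte-like cells was at 0, 1.54 and 8.22 CPM. Erythroid-like cells (2307 cells) gave a background of 0, 1.34 and 9.46 CPM for Nr4a1 and of 0, 0.251 and 4.97 CPM for Cd69, and medians of at most 2.65 CPM for each of the 9 genes.

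DP-R-like cells, a thymic class, were also found outside the 4 thymic samples, 2534 cells in 15 samples with at least 20, although the study calls these samples non-thymic. Their medians were 62.0 CPM for Nr4a1, 32.0 for Nr4a3, 25.6 for Cd69 and 16.2 for Itm2a, with 10 of 15 samples at 0 for Egr1. The values come from the same library as the thymic lobes but from a separate clustering, so no difference from those lobes was drawn.

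**Figure D5:**
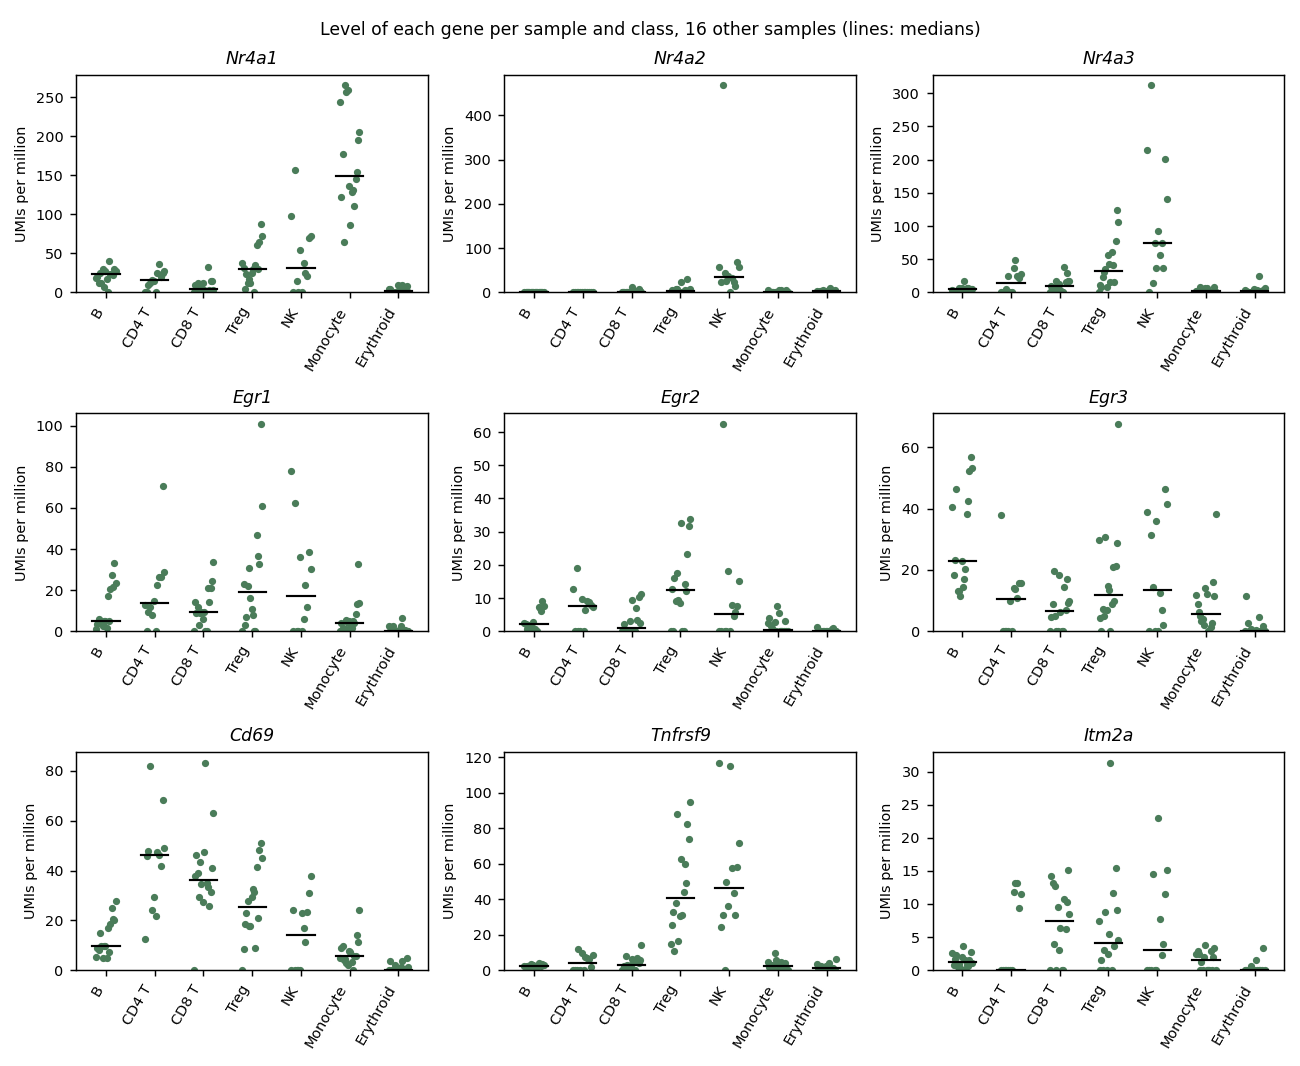
Level of each of the 9 genes in 7 classes of the 16 other samples, in CPM, the UMIs of the gene per 1000000 UMIs outside ribosomal RNA (linear axis from 0). Points are samples with at least 20 cells of the class and lines are medians: Cd69 is higher in the T-like classes than in B-like cells, Egr3 is highest by median in B-like cells at 23.1, and Nr4a1 in monocyte-like cells at 149.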

How the data were processed

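The authors processed the split-pool reads of each sublibrary with split-pipe against an mm10 reference from Ensembl and deposited un-normalized UMI counts per cell and gene, 128624 cells for the WT kit and 20085 for the Mini kit. Tool versions are not stated in the sources used. The deposited cell tables name the tissue sample of each cell, and these names gave the thymic lobes. The genes and gene lists were chosen with earlier results of these data known.

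Filtering kept cells of 500 to 25000 UMIs whose mitochondrial share was 15% or less, and removed doublets called per sample (4.43% of WT thymic, 4.52% of Mini and 1.78% of other cells). That left 37626 of 41838 WT thymic cells, 18402 of 20085 Mini cells and 79948 of 86786 other cells. The study reports larger doublet shares for its WT and Mini libraries, from a different method. Clusters came from 2000 genes, 30 principal components, 20 neighbours and Leiden resolution 1.5 (thymus) or 1 (other samples), leaving out the 9 genes and both response lists. A class needed 3 markers raised 1.25-fold. This naming rule, including its Rag1 limit of 25%, was revised several times after clusters were seen.

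UMIs were summed per lobe and class with at least 20 cells and tested by edgeR's quasi-likelihood test with the lobe as a block, since each lobe holds both classes of a comparison, over 9008 genes (WT) and 7628 (Mini), with Benjamini-Hochberg adjustment at 0.05. The SE of a log2 difference is its absolute value over the square root of the F statistic. It rests on the pooled variation of all classes and is not the SE of the lobe values. The expression filter was also set over all classes at once. Deviations from class means correlated with a median of 0.175 within a lobe and -0.054 between lobes in WT, and 0.050 and -0.019 in Mini. On simulated counts for DP-S against DP-R, the fit called 86.2% (WT) and 86.0% (Mini) of the tested genes changed 2-fold and 98.9% and 98.8% of those changed 4-fold, with 3.66% and 1.88% false among calls, over 9033 and 7793 genes. These counts had the same dispersion for all genes and no lobe effect. Only genes with a mean of at least 20 UMIs in the DP-R sums were changed. The shares thus do not give the recovery in the real counts or for scarcer genes such as Egr2 and Egr3. The pass mark of this test was changed after a first failure. CPM left ribosomal RNA out of the total, and likeness used log2(CPM + 1). Genes were named by a rule: the 9 in full, up to 4 called genes of each further list by absolute log2 fold change, and the 3 most correlated genes for each of the 9.

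Alternatives were DESeq2, RLE factors, no expression filter beyond 10 UMIs, no block, each lobe left out, sums per first-round well, doublets kept, no upper UMI limit, 15 components, resolution 0.75, Rag1 and Tox gates, all UMIs as the total, thinning to 1000 UMIs and, chosen after seeing the data, other limits on the gene pairs. With doublets kept, no upper UMI limit, 15 components or resolution 0.75 the cells were clustered and named anew, so the classes differ from the main ones. Intervals and floors cover counting error only. Tools were Python 3.11.15, numpy 2.4.6, scipy 1.17.1, scikit-learn 1.9.0, leidenalg 0.10.2, R 4.3.3, edgeR 4.0.16 and DESeq2 1.42.0.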

Additional observations from a re-analysis of the deposited data

Results flagged for a closer look

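In 14 of 162 groups of 4 lobes, 1 lobe stood farther from the others than Dixon's 95% limit allows, where chance flags about 1 in 20 groups. All values are CPM, with the nearest other lobe in parentheses. In WT, lobe 1 was high for Nr4a2 in DN cells at 82.1 (40.6), for Nr4a2 in DP-P cells at 28.3 (17.4) and for Nr4a3 in agonist-signalled cells at 820.5 (389.5). Lobe 2 was high for Cd69 in DP-P cells at 13.3 (10.4) and low for Cd69 in Treg cells at 38.8 (76.2). Lobe 3 was high for Egr1 in DN cells at 26.5 (16.8), for Egr1 in DP-R cells at 9.29 (6.68) and for Tnfrsf9 in agonist-signalled cells at 182 (94.1), and low for Nr4a2 in SP-CD8 cells at 20.0 (64.0).

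In Mini, lobe T-1-A was low for Egr3 in DN cells at 0 (1.16), and high for Egr3 in DP-R cells at 1.70 (0.629) and for Egr1 in SP-CD8 cells at 89.1 (26.7). Lobe T-2-A was high for Egr2 in immature SP-CD4 cells at 28.6 (13.4) and for Nr4a2 in mature SP-CD4 cells at 34.3 (12.3).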

How the results depend on the processing

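The counts of the 9 genes called in DP-S against DP-R stayed at 7 to 9 in WT and 6 to 9 in Mini over the alternatives run. In agonist-signalled against DP-S they were 7 to 9 and 6 to 9, but the fit at resolution 0.75 had a different agonist-signalled class. It went from 129 to 374 cells in WT lobe 1 and from 166 to 376 in T-1-A, and no immature SP-CD4 class was named. The count from that fit thus does not bear on the main agonist-signalled class. Which cells joined the class was not tested. In DP-P against DP-R the WT count of 4 was 0 without the lobe as a block, 9 without the upper UMI limit and 2 to 4 with a lobe left out, the lowest without lobe 3, and the Mini count of 4 was 8 without the upper UMI limit. In immature SP-CD4 against DP-S the WT count of 6 was 3 to 6 with a lobe left out, and the Mini count of 2 was 6 with doublets kept, 4 without the upper limit and 5 with 15 components. In mature against immature SP-CD4 the WT count of 3 was 1 without the block and the Mini count of 2 was 1 to 2 with a lobe left out, the lowest without T-1-A or T-1-B (without T-2-A Egr1 missed the threshold and Nr4a2 came to pass). In SP-CD8 against mature SP-CD4 the Mini count of 3 was 1 to 2 with a lobe left out, the lowest without T-2-B. The block changed the side of the threshold for single genes too, among them Nr4a2 in DP-S of WT. Shares of cells with a UMI were compared in agonist-signalled cells, as the median over the 9 genes in each lobe, averaged over lobes. In Mini this share was 7.90% after thinning (11.9% before). The Mini median odds ratio of 2.08 was 1.95 with doublets kept. It was 1.72 with pairs kept by expected cells and 1.85 with all pairs and the lobes together, these 2 chosen after seeing the data. The causes were not tested.

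Of values that passed, 695 stayed past the threshold, 55 missed it and 2 turned, both Cd69 in DP-P against DP-R of WT. Of those that did not pass, 365 stayed, 28 came to pass and 43 turned. The turned log2 differences are as follows. With doublets kept, DP-P against DP-R gave 0.054 (Egr1), 0.67 (Egr2), 0.37 (Egr3) and 0.029 (Cd69) in WT and 0.29 (Egr1), 0.049 (Cd69) and 0.36 (Tnfrsf9) in Mini, mature against immature SP-CD4 gave 0.053 (Cd69) and 2.01 (Tnfrsf9) in WT and 0.38 (Nr4a3) and 2.57 (Tnfrsf9) in Mini, and SP-CD8 against mature SP-CD4 gave -0.89 and -0.74 (Tnfrsf9). Without the upper limit, DP-P against DP-R gave 0.73 (Egr1), 1.67 (Egr2), 1.73 (Egr3) and 0.67 (Cd69) in WT and 0.91 (Egr1), 0.85 (Cd69) and 1.80 (Tnfrsf9) in Mini, immature SP-CD4 against DP-S gave -0.040 (Tnfrsf9) in WT, mature against immature SP-CD4 gave 0.020 (Nr4a3), 0.15 (Egr3) and 1.71 (Tnfrsf9) in WT and 0.25 (Nr4a3) and 1.85 (Tnfrsf9) in Mini, and SP-CD8 against mature SP-CD4 gave -0.79 and -0.54 (Tnfrsf9). With 15 components, DP-P against DP-R gave 0.062 (Egr1) in WT and 0.32 (Tnfrsf9) in Mini, immature SP-CD4 against DP-S gave -0.32 (Egr1) in Mini, and mature against immature SP-CD4 gave 0.19 (Nr4a2), 0.44 (Egr3) and 0.92 (Tnfrsf9) in WT and 1.22 (Tnfrsf9) in Mini. With a lobe left out, the WT range was -0.45 to 0.45 (Egr3) and -0.22 to 0.18 (Cd69) in mature against immature SP-CD4 and -0.42 to 0.33 (Egr3) in SP-CD8 against mature SP-CD4, and the Mini range was -0.73 to 0.017 (Tnfrsf9) in DP-P against DP-R, -0.048 to 0.63 (Nr4a2) and -0.16 to 0.43 (Nr4a3) in immature SP-CD4 against DP-S, and -0.15 to 0.058 (Nr4a3) and -0.51 to 0.17 (Tnfrsf9) in mature against immature SP-CD4. Resolution 0.75 gave no immature SP-CD4 or SP-CD8 class and 15 components no SP-CD8 class, so those comparisons were not run there. With doublets kept, no upper limit, 15 components or resolution 0.75 the fit also held no Treg class. In WT lobe 4 the main classes held 289 mature SP-CD4 and 104 Treg cells, and with doublets kept 373 mature SP-CD4 cells. The part of Treg cells in the turned Tnfrsf9 values was not tested. Egr2 and Egr3 fell below the expression filter in Mini.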
